A study of Canis lupus familiaris with 186 samples.

Results

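The mevalonate pathway turns acetyl-CoA into isoprenoid units and, from them, into cholesterol. It is the pathway that nitrogen-containing bisphosphonates act on: these drugs, used for bone pain in dogs with osteosarcoma, block farnesyl diphosphate synthase in the osteoclasts that take them up. The genes followed here were HMGCS1, MVD, IDI1, FDPS, FDFT1, LSS, DHCR7 and INSIG1. They were chosen by name, as the rows of the deposited table whose gene symbol is one of these symbols, so that 8 of its 37952 genes are described. All 8 were among the 13422 genes that passed the filter on low counts.

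The data are mRNA sequencing of primary tumors from 186 client-owned dogs with osteosarcoma, a cancer of bone-forming cells, collected before treatment. The dogs came from a pair of trials, COTC021 and COTC022, with 93 dogs in each. In the study's account, dogs went on to carboplatin with or without rapamycin after surgery, so neither drug had been given when the tissue was taken. Which trial name goes with which arm is not given in the labels. Each library is the bulk RNA of 1 tumor of 1 dog, with no technical repeat, no normal bone and no bisphosphonate arm analysed here. GS-1 clusters, disease-free interval and survival were not analysed here, since the sample labels do not give them.

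Total counts ran from 6587631 to 27420857 per library, with a median of 10797162. Of the deposited library names, 50 carry a doubled underline, __ (18 of COTC021 and 32 of COTC022). Those libraries were deeper by median, at 19440450 (range 15803906 to 23214323) against 9851681 in the other 136. The totals of the other 136 ran from 6587631 to 27420857, so the ranges overlap. What the mark in the name stands for is not given in the sources used here, so values are also given within each of these name groups. A single library, COTC022 replicate 64, stood apart: its median correlation with the other libraries was 0.692, where the next lowest was 0.772. The tissue label was checked against osteoblast markers, all 7 of which (RUNX2, SP7, ALPL, BGLAP, IBSP, SPP1 and COL1A1) passed the filter. Their summed level ran from 936 to 114883 CPM (counts scaled to a library total of 1000000), and none was at 0 in more than 1 library. The sum, with a median of 25162 CPM, rests mostly on COL1A1 (median 20451 CPM). SP7 and BGLAP had medians of 23.2 and 26.4 CPM, so the sum is a weak check of the label.

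In the pathway, HMGCS1 makes HMG-CoA at the entry of the pathway. MVD makes isopentenyl diphosphate, IDI1 converts it to its reactive isomer, and FDPS joins these units into farnesyl diphosphate, the branch point. From there FDFT1 (squalene synthase) commits carbon to sterols, LSS closes the ring to give lanosterol, and DHCR7 carries out a last reduction to cholesterol. INSIG1 is no enzyme: it is the membrane protein that, when sterol is plentiful, holds SCAP and the transcription factor SREBP in the endoplasmic reticulum. SREBP-2, encoded by SREBF2, is known to switch on the genes of this pathway, INSIG1 among them, when cells are short of sterol.

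The 8 genes lie on 8 different chromosomes of the GSD_1.0 assembly that the authors aligned to. IDI1 is at chromosome 2, 32979655 to 32986260, HMGCS1 at chromosome 4, 67551264 to 67571669, and MVD at chromosome 5, 65166481 to 65174835. FDPS is at chromosome 7, 42227832 to 42237121, INSIG1 at chromosome 16, 18992903 to 19004326, and DHCR7 at chromosome 18, 47708851 to 47728938. FDFT1 is at chromosome 25, 26216048 to 26249367, and LSS at chromosome 31, 39460908 to 39484125. In the RefSeq annotation of that assembly 0 other genes overlap any of the 8 gene bodies.

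Levels are given as CPM of the library total. They are not divided by gene length, so a gene is compared only with itself across dogs. HMGCS1, the entry enzyme, ran from 26.1 CPM in the lowest dog of COTC021 through a median of 75.7 to 311, and from 26.5 through 73.0 to 268 in COTC022. The trials overlapped over nearly their whole range, with means of 90.4 ± 53.9 (SD, n = 93) and 88.2 ± 49.8 CPM (SD, n = 93).

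MVD had a lowest, median and highest level of 12.5, 47.3 and 173 CPM in COTC021 and of 13.3, 50.8 and 120 CPM in COTC022. IDI1 had 8.85, 27.8 and 106 CPM in COTC021 and 6.86, 25.1 and 83.1 CPM in COTC022. FDPS, the bisphosphonate target, had 24.9, 79.0 and 225 CPM in COTC021 and 30.9, 77.8 and 229 CPM in COTC022. Its mean was nearly the same in both trials, at 87.5 ± 37.9 CPM (SD, n = 93) in COTC021 and 87.5 ± 39.2 CPM (SD, n = 93) in COTC022. No dog of either trial was without FDPS transcript: the lowest count was 193.

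Downstream of FDPS, FDFT1 had a lowest, median and highest level of 14.4, 31.3 and 107 CPM in COTC021 and of 9.72, 29.8 and 140 CPM in COTC022. LSS had 5.24, 21.6 and 107 CPM in COTC021 and 1.09, 21.3 and 82.7 CPM in COTC022. The dog with the least LSS, COTC022 replicate 73, had 10 counts (95% Wilson interval 0.591 to 2.00 CPM) and also the least IDI1. Such intervals cover counting error only.

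DHCR7 was the gene with the longest upper tail. It ran from 2.45 CPM through a median of 10.9 to 143 in COTC021 and from 2.08 through 10.8 to 29.2 in COTC022. The highest dog, COTC021 replicate 70, had 1296 counts (143 CPM, 95% Wilson interval 135 to 151), which is 13.2 times the median of all dogs. The next dogs were also of COTC021, replicates 7, 34 and 72, at 81.9, 57.1 and 34.8 CPM. In all, 9 dogs of COTC021 lay above every dog of COTC022.

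INSIG1, the regulator, had a lowest, median and highest level of 4.47, 51.5 and 282 CPM in COTC021 and of 9.80, 49.3 and 265 CPM in COTC022. Of the 8 it had the widest span from the 10th to the 90th percentile. Its level at the 90th percentile of the 186 dogs was 7.50 times that at the 10th. For the enzymes this ratio was 5.36 for LSS, 4.40 for DHCR7, 4.32 for IDI1, 3.47 for HMGCS1, 3.34 for FDFT1, 2.96 for MVD and 2.95 for FDPS. By the coefficient of variation, which gives the upper tail more weight, DHCR7 came first at 94.9%, with INSIG1 at 79.5% and FDPS lowest at 43.9%. GGPS1, which uses farnesyl diphosphate to make geranylgeranyl diphosphate, is not one of the 8. Its level at the 90th percentile was 2.28 times that at the 10th.

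**Figure D1:**
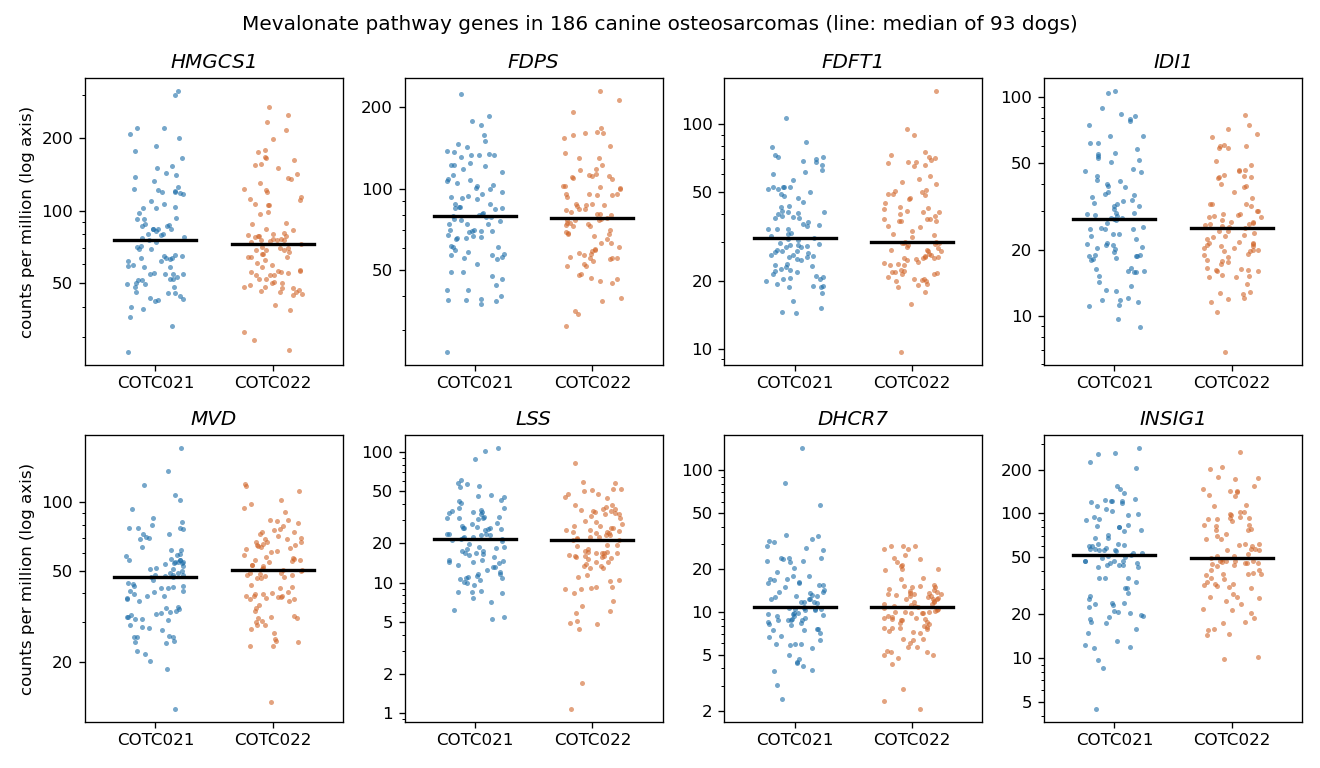
Level of each of the 8 genes in every dog, in CPM on a log axis, by trial (93 dogs in each), with the median of each trial marked. The trials overlap for every gene, and 9 dogs of COTC021 lie above all dogs of COTC022 in DHCR7.

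The highest dogs of the 8 genes overlapped in part. When the 19 dogs with the highest level were taken for each gene, 115 of the 186 dogs were in none of the 8 sets. There were 36 dogs in 1 set, 14 in 2, 9 in 3, 4 in 4 and 4 in 5. A further 3 dogs were in 6 and 1 dog was in 7. For the 19 lowest dogs of each gene, 107 dogs were in none, 41 in 1, 20 in 2 and 7 in 3. In 4 sets there were 7, in 5 there were 2, in 6 there were 2 and in 7 there were 0. The overlap that unrelated genes would give was not computed. COTC021 replicate 59 was the highest dog in both HMGCS1 (311 CPM) and INSIG1 (282 CPM), and COTC021 replicate 54 was the lowest in both FDPS and MVD.

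The first comparison asked whether the genes differed between the trials, the only groups that the labels give. None of the 8 did by limma-voom with Benjamini-Hochberg adjustment over all 13422 genes, where a gene is called at an adjusted p under 0.05. Over all genes 2 were called (0.0149%), with 1332 at an unadjusted p under 0.05, and 0 of the 8 members were at that unadjusted level. With edgeR's quasi-likelihood test and with DESeq2, 0 of the 8 were called too, and 1 of them, DHCR7, had an unadjusted p under 0.05 in each (0.961% and 0.529% of all genes called). Its difference was -0.37 on the log2 scale by edgeR (adjusted p = 0.152) and -0.38 by DESeq2 (adjusted p = 0.122). In the limma fit the differences of COTC022 from COTC021 on the log2 scale lay between -0.14 for DHCR7 (SE 0.12, adjusted p = 0.766) and 0.14 for MVD (SE 0.087, adjusted p = 0.620). Between the groups of library names, 4.27% of all genes were called and 0 of the 8, with 1 of the 8 (DHCR7) at an unadjusted p under 0.05 by limma and 0 by edgeR (5.16% of all genes). DHCR7 was 0.28 higher on the log2 scale in the double-underline libraries (SE 0.13, adjusted p = 0.208), and FDPS differed by -0.05.

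The second question was whether the genes vary together from tumor to tumor. Of the 8, the 6 enzymes other than MVD were correlated most with each other, MVD less with them and INSIG1 least, by median r. Correlations were computed on log2 CPM scaled by the trimmed mean of M-values (TMM), over 186 dogs and for all 28 pairs, with 100000 permutations. The smallest p these can give is 1e-05. In the 15 pairs among the enzymes other than MVD, r ran from 0.36 to 0.68, with a median of 0.50. The 6 pairs of MVD with the other enzymes had r between 0.20 and 0.44 (median 0.29), and the 7 pairs of INSIG1 between -0.03 and 0.27 (median 0.17). The split into these groups was made from the same correlations, and their ranges overlap. LSS and DHCR7, for one, had an r of 0.36, below the 0.44 of FDPS and MVD. FDFT1 and INSIG1 had an r of 0.27 (permutation p = 0.00027).

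The closest pair was FDPS and IDI1, neighbors in the pathway. Their r was 0.68 and Spearman's rho 0.64, each with a permutation p of 1e-05. Without the 2 dogs farthest from the median of FDPS r was 0.66. Within COTC021 it was 0.70, within COTC022 0.66, in the double-underline libraries 0.56 and in the others 0.71. In the limma fit of every gene on FDPS with trial as covariate, IDI1 had an adjusted p of 9.98e-23.

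HMGCS1 and FDFT1 came next, although they stand at opposite ends of the isoprenoid steps. Their r was 0.61 and rho 0.59 (permutation p = 1e-05 for each), or 0.60 without the 2 dogs farthest from the median of HMGCS1. It was 0.69 within COTC021, 0.53 within COTC022, 0.54 in the double-underline libraries and 0.64 in the others.

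FDPS and MVD had an r of 0.44 (rho 0.44, permutation p = 1e-05 for each; 0.46 without the 2 farthest dogs). In the double-underline libraries that r was 0.21 (permutation p = 0.150) and in the others 0.50. HMGCS1 and MVD had an r of only 0.20 (permutation p = 0.00577) and a rho of 0.15 (permutation p = 0.0430), and within COTC022 their r was 0.08 (permutation p = 0.449). MVD and INSIG1 had an r of -0.03 (permutation p = 0.708), and HMGCS1 and INSIG1 one of 0.11 (permutation p = 0.134).

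In all, 26 of the 28 pairs had a permutation p for r under 0.05, and 16 of 28 in the 50 double-underline libraries. The share of all gene pairs that pass this cutoff was not computed, so these counts have no background beside them. Over all 90068331 pairs of genes tested the median r was -0.004 and 1.27% had an r above 0.4. Among the members 15 of 28 pairs lay above 0.4. All these points share the same libraries, and in bulk tissue a lower share of a cell type and less RNA per cell cannot be told apart.

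**Figure D2:**
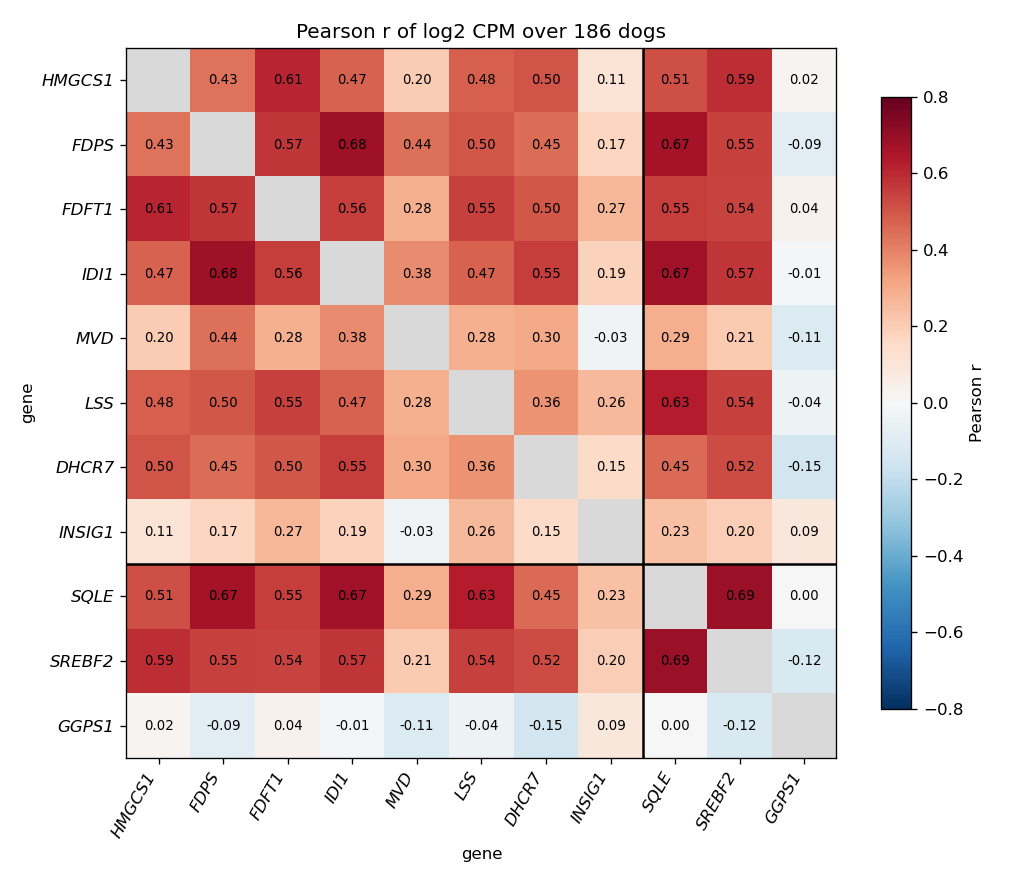
Pearson correlation of log2 CPM over 186 dogs for every pair of the 8 genes and, beyond the black lines, of SQLE, SREBF2 and GGPS1, colored by r with its value printed. The 15 pairs of the 6 enzymes other than MVD lie between 0.36 and 0.68, and the pairs of INSIG1 with the other members between -0.03 and 0.27.

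Each member's slope on each of the others was also tested over all genes. With FDFT1 as the covariate all 7 other members were called higher, where 18.9% of all genes were called in either direction. With IDI1 it was 7 of 7 (38.1% of all genes) and with LSS 7 of 7 (9.44%). With HMGCS1 (21.9%), FDPS (38.8%), MVD (46.5%) and DHCR7 (42.3%) it was 6 of 7, and with INSIG1 2 of 7 (21.7%). The 2 that rose with INSIG1 were LSS, by 0.24 on the log2 scale per SD of INSIG1 (adjusted p = 0.00904), and FDFT1, by 0.17 (adjusted p = 0.00390).

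The genes most like the members in pattern were mostly other enzymes of sterol synthesis. For each gene tested r was taken with the mean z-score of the 8 members over 186 dogs, as a description with no test. Among the 10 highest values were those of SQLE (r = 0.74), the squalene epoxidase, MSMO1 (0.71), SREBF2 (0.69) and CYP51A1 (0.69). ACAT2 (0.67), NSDHL (0.62) and FADS2 (0.58), a fatty acid desaturase, were also among these 10. At the other end stood PGM2L1 (-0.55), N4BP2L1 (-0.52), TMEM154 (-0.50), IGFBP7 (-0.50) and HBP1 (-0.50).

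The nearest genes differed by member. Among the 5 genes most like HMGCS1 were SREBF2 (r = 0.59), CYP51A1 (0.55), SQLE (0.51) and MSMO1 (0.51). Among the 5 most like FDPS were SQLE (0.67), ACAT2 (0.59), MSMO1 (0.59) and CYP51A1 (0.59), which act in mevalonate or sterol synthesis.

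Those of FDFT1 included MSMO1 (0.61), SQLE (0.55), CYP51A1 (0.54) and SREBF2 (0.54). Those of IDI1 included SQLE (0.67), MSMO1 (0.62), RPA2 (0.61), a replication protein, and SREBF2 (0.57). Those of LSS included SQLE (0.63), SREBF2 (0.54) and FADS2 (0.50). Those of DHCR7 included FADS2 (0.61), GANAB (0.57), CYP51A1 (0.57) and MARS1 (0.55), of which GANAB acts in glycoprotein folding and MARS1 charges a transfer RNA with methionine.

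MVD and INSIG1 had other partners. MVD was most like CTU2 (0.77), ATAD3A (0.71), ZC3H18 (0.70), NOB1 (0.69) and EMC8 (0.68), and its r with SQLE was 0.29 (rank 1423). INSIG1 was most like SLC4A2 (0.87), PLA2G15 (0.83), ATP6V1B2 (0.81), TCIRG1 (0.81) and ATP6V1A (0.80). SLC4A2 is an anion exchanger of osteoclasts, and TCIRG1, ATP6V1B2 and ATP6V1A encode subunits of the proton pump with which osteoclasts dissolve bone mineral. The r of INSIG1 with SQLE was 0.23 (rank 1087).

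The 5 partners of MVD lie on chromosome 5 with it: CTU2 0.0420 Mb away, ZC3H18 0.0252 Mb, EMC8 2.22 Mb, ATAD3A 8.10 Mb and NOB1 15.4 Mb. Of the 50 genes most correlated with MVD, 37 (74.0%) were on its chromosome, which holds 5.14% of the genes tested. For FDFT1 it was 27 of 50 (54.0% against 1.86%), for FDPS 21 (42.0% against 3.42%), for IDI1 19 (38.0% against 4.09%) and for HMGCS1 16 (32.0% against 2.93%). For LSS it was 14 (28.0% against 0.939%), for DHCR7 9 (18.0% against 3.28%), and for INSIG1 1 (2.0% against 1.89%). That 1 gene is SLC4A2, 3.16 Mb from INSIG1 on chromosome 16.

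The same was seen in the genes next to each member. Within 2 Mb of MVD, 50 genes were tested, 47 of them had an r above 0 with it, and their median r was 0.28, where genes on other chromosomes had a median of -0.02. In COTC021, COTC022 and both name groups the median of these neighbors lay between 0.23 and 0.33. Farther than 10 Mb from MVD on chromosome 5 the median was 0.11. Within 2 Mb of FDFT1 it was 0.18 over 12 genes and within 2 Mb of FDPS 0.17 over 101 genes. HMGCS1 had a median of 0.27 over 17 genes, LSS 0.21 over 31, IDI1 0.12 over 33 and DHCR7 0.12 over 32. For INSIG1 it was 0.08 over 9 genes, and -0.06 within COTC022. The median near DHCR7 was 0.05 within COTC022, and that near FDFT1 0.09 in the double-underline libraries. Beyond 10 Mb on the same chromosome the median for FDFT1 was 0.15, little below that within 2 Mb, and for LSS 0.13. There it was 0.06 for HMGCS1, 0.06 for IDI1, 0.03 for FDPS, 0.03 for INSIG1 and 0.01 for DHCR7. DNA copy number was not measured in these files, and its part in these values was not tested.

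**Figure D3:**
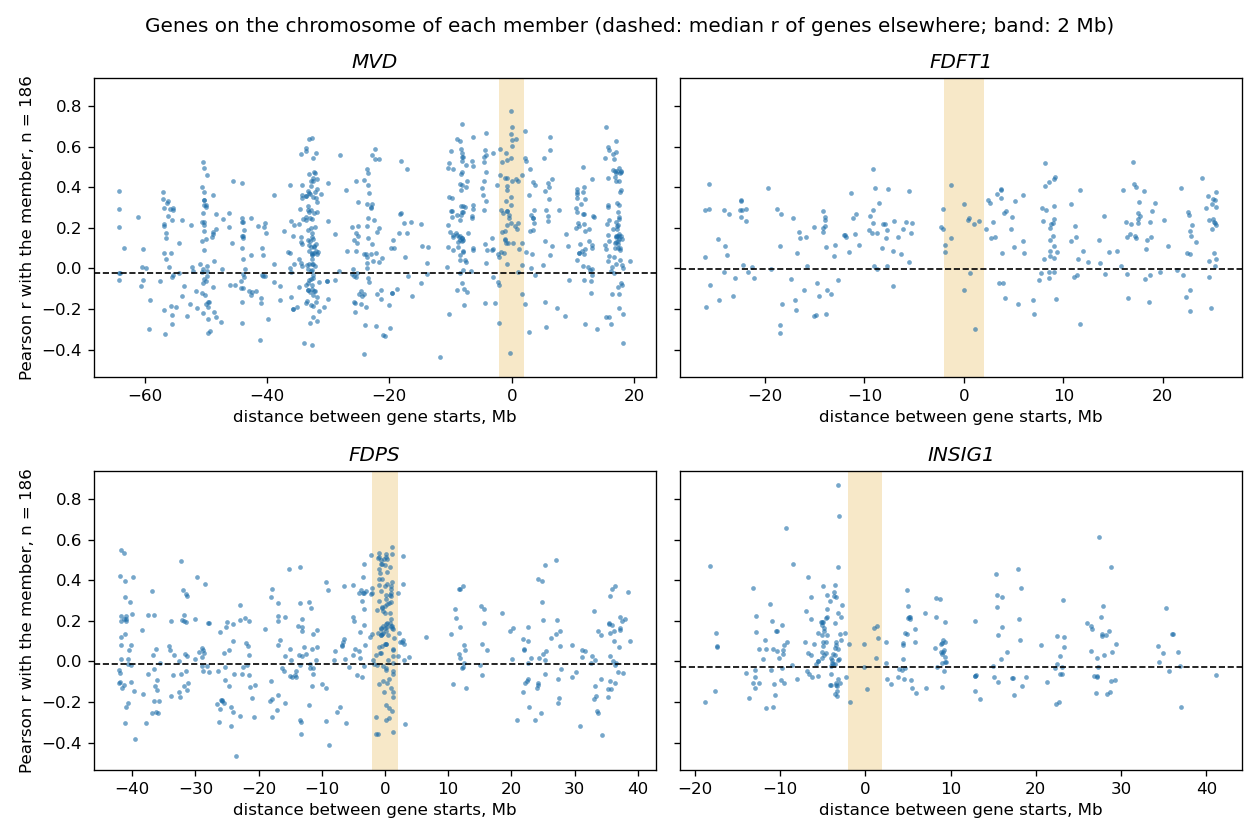
Pearson r of each gene tested on the same chromosome with MVD, FDFT1, FDPS or INSIG1 over 186 dogs, against its distance from that member in Mb, with a band at 2 Mb and a dashed line at the median of genes on other chromosomes. Genes in the band have a median r of 0.28 for MVD, 0.18 for FDFT1, 0.17 for FDPS and 0.08 for INSIG1.

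The osteoclast was looked at next, since it is the cell in which bisphosphonates act and since INSIG1 ran with genes of that cell. The osteoclast score is the mean z-score of 7 markers (CTSK, ACP5, DCSTAMP, OCSTAMP, ATP6V0D2, TNFRSF11A and SIGLEC15). The eighth listed marker, CALCR, did not pass the filter and was at 0 in 23 libraries. The summed CPM of the list ran from 71.5 to 25444 in COTC021 and from 126 to 20086 in COTC022. OCSTAMP was at 0 in 10 libraries, SIGLEC15 in 6 and DCSTAMP in 2, and the other 4 of the 7 in none.

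INSIG1 rose with this score by 0.91 on the log2 scale per SD (SE 0.048, limma adjusted p = 4.15e-43), and MVD fell by 0.12 (SE 0.043, adjusted p = 0.0165). The other 6 members did not pass, and over all genes 33.1% did, 15.5% higher and 17.6% lower. FDPS, the enzyme that bisphosphonates block, had a slope of -0.01 (SE 0.043, adjusted p = 0.929). INSIG1 had an r of 0.82 and a rho of 0.84 with the score (permutation p = 1e-05 for each), and r was 0.81 without the 2 dogs farthest from the score's median. It was 0.82 within COTC021, 0.82 within COTC022, 0.74 in the double-underline libraries and 0.84 in the others. FDPS had an r of -0.01 with the score (permutation p = 0.887) and a rho of 0.03. With the single markers INSIG1 had an r between 0.72 for DCSTAMP and 0.79 for SIGLEC15, and FDPS one between -0.10 and 0.04.

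The slope of INSIG1 exceeded that of each other member. INSIG1 was picked for this comparison after it had been seen to run with osteoclast genes. The p-values of the differences are therefore no separate support for its slope. The difference of the slopes was smallest from FDFT1, at 0.86, and largest from MVD, at 1.01, on the log2 scale per SD of the score, with a permutation p of 1e-05 in each of the 7 comparisons (1e-05 also after Benjamini-Hochberg adjustment over these 7). Which cells hold the INSIG1 transcript cannot be told apart in bulk tissue. With a macrophage score in the same fit INSIG1 had a slope of 0.93 (adjusted p = 2.05e-42) and MVD one of -0.10 (adjusted p = 0.0803), which was not called. Without COTC022 replicate 64, HMGCS1 was called as well, 3 of 8 in all.

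**Figure D4:**
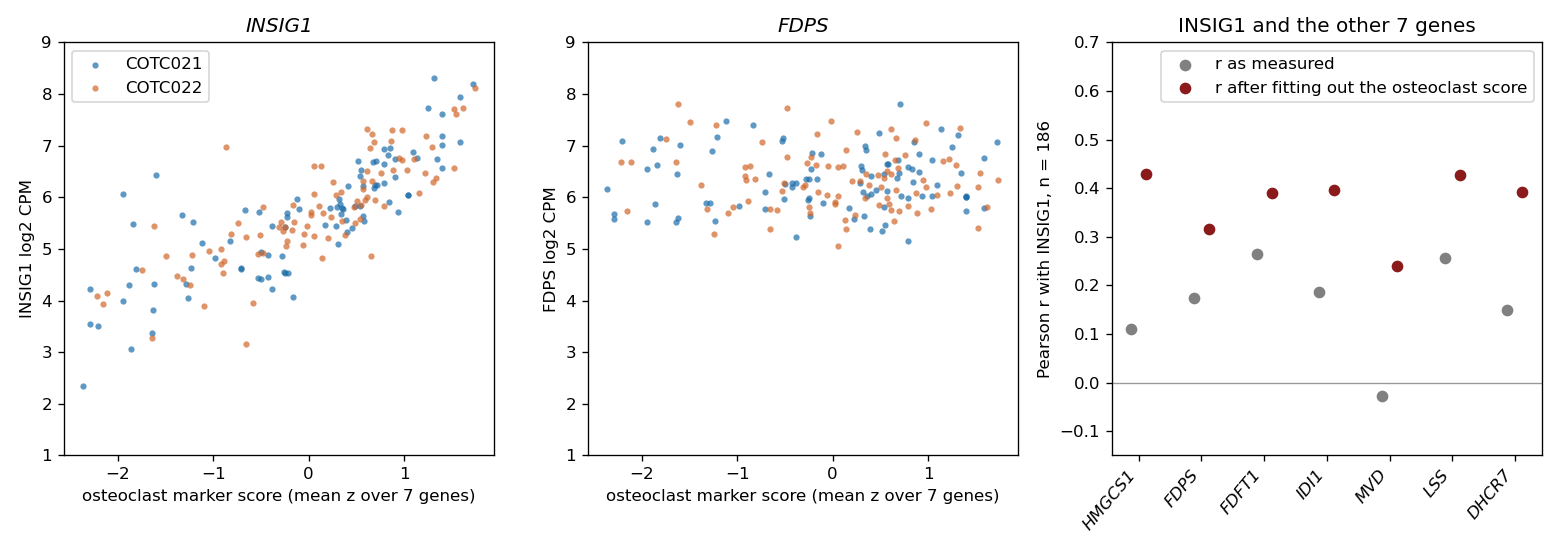
Log2 CPM of INSIG1 and of FDPS against the osteoclast score (in SD) in each of 186 dogs, colored by trial, and on the right the r of INSIG1 with each other member before and after the score was fitted out. INSIG1 rises with the score (r = 0.82) and FDPS does not (r = -0.01), and every r with INSIG1 is higher after the fit, as from 0.11 to 0.43 for HMGCS1. That rise follows by arithmetic from the r of each gene with the score.

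With the osteoclast score fitted out, a choice made after the data had been seen, INSIG1 had a positive r with each other member. INSIG1 had an r of 0.82 with the score, and the other members between -0.20 (MVD) and 0.05 (FDFT1). Given such values, the fit raises each r by arithmetic, so the rise is no separate finding. The r of INSIG1 with HMGCS1 went from 0.11 to 0.43, with IDI1 from 0.19 to 0.40, with DHCR7 from 0.15 to 0.39 and with LSS from 0.26 to 0.43. With FDPS it went from 0.17 to 0.32, with FDFT1 from 0.27 to 0.39 and with MVD from -0.03 to 0.24. In the limma fit on INSIG1 with the score as covariate, 6 of the 7 other members rose, where 1.45% of all genes were called in either direction.

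In that fit LSS rose by 0.69 on the log2 scale per SD of INSIG1 (adjusted p = 1.58e-05), DHCR7 by 0.57 (adjusted p = 3.86e-05), HMGCS1 by 0.52 (adjusted p = 2.09e-06) and IDI1 by 0.52 (adjusted p = 2.60e-05). FDFT1 rose by 0.43 (adjusted p = 5.10e-05) and FDPS by 0.32 (adjusted p = 0.00463). MVD had a slope of 0.23 (adjusted p = 0.0728) and was not called. Of the sterol steps outside the members 6 of 10 rose, and of the fatty acid genes 5 of 8. ACAT2 rose by 0.25 and SREBF2 by 0.40, and 0 of the 15 genes of the isoprenoid branch were called, with 3 at an unadjusted p under 0.05.

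The number of calls in that fit changed with the libraries used. Within COTC021 2 of the 7 members were called (0.156% of all genes), within COTC022 3 (0.164%), in the double-underline libraries 0 (0.0224%) and in the others 7 (1.57%). In the double-underline libraries the r of INSIG1 with MVD, with the score fitted out, was -0.17.

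The third comparison was along GS-1, an immune gene signature from an earlier study, which the study used to divide these tumors. Since no cluster is in the labels, GS-1 was kept as a continuous score, the mean z-score of its 27 genes, all of which passed the filter. Of the 8 members, 5 were lower where GS-1 was higher and 0 were higher, where 26.2% of all genes were called lower and 22.3% higher by limma-voom with trial as covariate. DHCR7 fell by 0.27 on the log2 scale per SD of the score (SE 0.064, adjusted p = 0.000172), LSS by 0.22 (SE 0.075, adjusted p = 0.0117) and HMGCS1 by 0.20 (SE 0.050, adjusted p = 0.000391). FDFT1 fell by 0.16 (SE 0.046, adjusted p = 0.00263) and IDI1 by 0.16 (SE 0.056, adjusted p = 0.0151).

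The other 3 did not pass. FDPS had a slope of -0.09 (SE 0.042, adjusted p = 0.0840), MVD one of -0.09 (SE 0.043, adjusted p = 0.0874) and INSIG1 one of -0.02 (SE 0.080, adjusted p = 0.827). The median slope of the 8 was -0.16, and that of all genes -0.02. When the score was taken from TMM-scaled values, FDPS and MVD were called too, 7 of 8 in all (26.8% of all genes lower). Without COTC022 replicate 64, the library that stood apart, 6 of the 8 were called lower, MVD among them (-0.11, adjusted p = 0.0498), and 24.1% of all genes.

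These calls were fewer in parts of the data. Within COTC021 3 members were called lower (11.3% of all genes), within COTC022 1 (17%), in the double-underline libraries 1 (10.1%) and in the others 3 (17.2%). With proliferation as covariate it was 3 (20.9%). The 1 member called within COTC022 and the 1 called in the double-underline libraries are shares close to the background. In a joint fit with the proliferation, endothelial, osteoblast and osteoclast scores, added after the data had been seen, 0 were called by limma, with 1 (HMGCS1) at an unadjusted p under 0.05, where 12.3% of all genes were called lower. Slopes were not alike in all subsets: DHCR7 had -0.39 (SE 0.11) within COTC021 and -0.17 (SE 0.071) within COTC022, HMGCS1 had -0.28 and -0.13, and INSIG1 -0.07 and 0.02. LSS had -0.38 (SE 0.12) in the double-underline libraries and -0.15 (SE 0.099) in the others. No member was called in a test of the interaction of the score with trial or with name group, with 0 of 13422 genes (0%) called by limma in either and 374 and 960 at an unadjusted p under 0.05, none of them a member.

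Markers of several cell types moved with the members, and each score was fitted on its own. The macrophage score, from 7 of 7 markers whose summed CPM ran from 84.1 to 4548, was taken first. All 7 enzymes fell with it and INSIG1 rose, where 26.4% of all genes fell and 22.1% rose. DHCR7 fell by 0.27 (adjusted p = 6.71e-05), and INSIG1 rose by 0.20 (adjusted p = 0.0280), both on the log2 scale per SD. INSIG1 and MVD were not at an unadjusted limma p under 0.05 within COTC021, within COTC022 or in the double-underline libraries. The macrophage slope of INSIG1 was not taken with the osteoclast score in the same fit. With the T cell score, which rests on 4 of 6 markers, DHCR7, FDFT1, HMGCS1 and LSS fell (16.6% of all genes), and 0 rose.

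The proliferation score, from 10 of 10 cell cycle genes with a summed CPM of 113 to 2207, ran the other way. All 7 enzymes rose with it, where 24.9% of all genes rose and 30.2% fell. DHCR7 rose by 0.40 on the log2 scale per SD (SE 0.061, adjusted p = 7.21e-09), IDI1 by 0.36 (SE 0.052, adjusted p = 1.54e-09), MVD by 0.29 (SE 0.039, adjusted p = 3.35e-11) and FDPS by 0.24 (SE 0.039, adjusted p = 5.89e-08). LSS rose by 0.21, FDFT1 by 0.14 and HMGCS1 by 0.14 (adjusted p = 0.0171). INSIG1 had a slope of -0.02 (adjusted p = 0.882). In the joint fit 4 of the 8 were called on the proliferation score: DHCR7, FDPS, IDI1 and MVD. HMGCS1, FDFT1 and LSS were not at an unadjusted limma p under 0.05 there. The share of all genes called in that fit is not given.

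The endothelial score, from 6 of 6 vessel markers with a summed CPM of 80.1 to 2880, ran against the enzymes. All 7 enzymes fell with it (20.6% of all genes), DHCR7 by 0.28, IDI1 by 0.26, FDPS by 0.21 and MVD by 0.20 on the log2 scale per SD, while INSIG1 had a slope of -0.07 and was not called. With the osteoblast score 5 members rose (18.2% of all genes): INSIG1 by 0.41 (adjusted p = 5.36e-06), DHCR7 by 0.20, and FDFT1, FDPS and IDI1 less. In the joint fit 0 of the 8 were called on the osteoblast score by limma, with 3 at an unadjusted p under 0.05, and the slope of INSIG1 was -0.04.

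Of the remaining scores, DHCR7, FDPS and MVD fell with adipocyte markers (13.1% of all genes), of which 3 of 7 passed the filter. DHCR7 fell with skeletal muscle markers by 0.21 (3.27%), the only member called there. HMGCS1 and DHCR7 rose with cartilage markers, by 0.15 and 0.17, and INSIG1 fell by 0.23. These 3 of 8 are a share near that of all genes (29% in either direction). Within each trial and each name group 0 of 8 were called on the cartilage score. With hypoxia genes 0 of 8 were called by limma (15.4% of all genes), and 1, HMGCS1, was at an unadjusted p under 0.05.

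**Figure D5:**
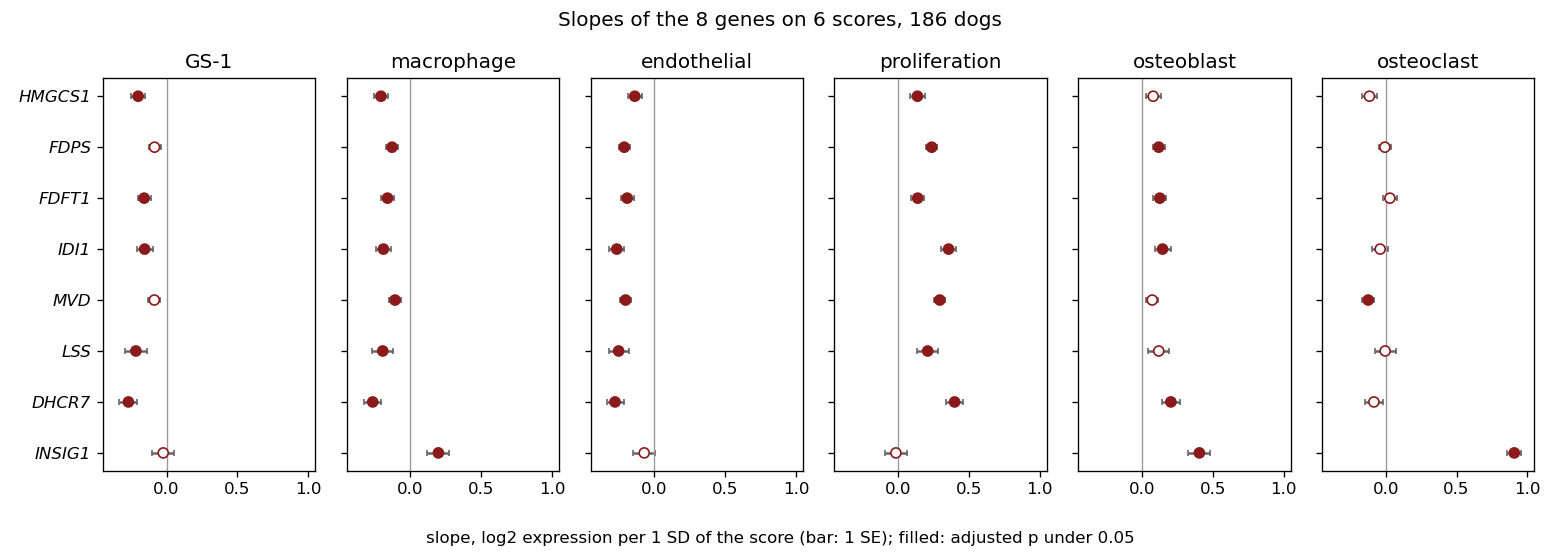
Slope of each of the 8 genes on 6 scores, on the log2 scale per SD of the score with its standard error as bar, over 186 dogs with trial as covariate; filled points have an adjusted p under 0.05. All 7 enzymes have slopes below 0 on the macrophage and endothelial scores and above 0 on proliferation, and INSIG1 has 0.91 on the osteoclast score and -0.02 on proliferation.

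The rest of the pathway was followed through fixed lists. Of the 10 sterol steps outside the members, 10 rose with FDPS (18.5% of all genes rose), 10 with IDI1 (18.5%), 9 with DHCR7 (20%), 9 with FDFT1 (9.02%) and 9 with LSS (4.31%). With HMGCS1 8 rose (10.2%), with MVD 7 (22.6%) and with INSIG1 5 (11.3%). On the mean z-score of the members, SQLE had a slope of 0.97 (SE 0.068) on the log2 scale per SD, among the 2 highest of that list, and the 2 lowest were those of LBR (0.07) and EBP (0.24). These slopes are descriptions, as are those that follow. Of the mevalonate steps outside the members, ACAT2 had the highest slope (0.36) and PMVK the lowest (-0.09).

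The branch that leads from farnesyl diphosphate to prenylated proteins, dolichol and ubiquinone was taken as a list of 15 genes. Of these, 0 rose with LSS (4.31% of all genes), 1 with FDFT1 (9.02%), 3 with HMGCS1 (10.2%), 3 with INSIG1 (11.3%) and 4 with FDPS (18.5%). With IDI1 5 rose (18.5%), with DHCR7 5 (20%) and with MVD 7 (22.6%). With LSS 2 of the 15 had an unadjusted p under 0.05 by limma. GGPS1 had a slope of -0.02 (SE 0.031) on the members' mean and a correlation of -0.05 with it (rank 7664). The highest slopes of the branch were 0.20 for PDSS1 and 0.18 for RCE1, and the lowest -0.06 for COQ2 and -0.03 for FNTA.

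Among genes of SREBP processing and cholesterol uptake, SREBF2 had a slope of 0.41 (SE 0.032) on the members' mean, and INSIG2 (-0.15) and NPC1 (-0.05) had the lowest. Fatty acid genes, of which all 8 rose with HMGCS1 (10.2% of all genes) and 0 with INSIG1 (11.3%), were led by FADS1 (0.51) and FADS2 (0.48). With INSIG1 1 of these 8 was at an unadjusted p under 0.05 by limma. The lowest slopes of that list, for ACACA and ELOVL5, were 0.10 each.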

How the data were processed

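Tumor tissue kept in RNAlater and frozen was sequenced as stranded poly(A) mRNA libraries. The authors trimmed reads with Cutadapt, aligned them with STAR 2.7.0f to the GSD_1.0 assembly and deposited RSEM 1.3.1 expected counts per gene. A share of 3.07% of these values was not whole, and values were rounded. Of 198 columns, 186 matched a sample label; 12 were not used. Replicate numbers are names only.

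Genes were kept with edgeR 4.0.16 filterByExpr (minimum count 10, minimum proportion 0.5, large n 5) and TMM-scaled. limma 3.58.1 voom in R 4.3.3 tested the trial and, with trial as covariate, each score and each member's standardized log2 CPM, adjusting p over all 13422 genes at 0.05. Adjusted p-values are from these fits. Tests are two-sided. Scores are mean z-scores of quantile-normalized log2(CPM + 2). Correlations used Python 3.11.15, numpy 2.4.6 and scipy 1.17.1. Alternatives included edgeR's quasi-likelihood test, DESeq2 1.42.0, quantile normalization, no filter, covariates and subsets. The limma fits were tested on simulated counts in which genes vary independently and the score is random. Genes of these tumors are correlated, so that test does not speak to the calls given here. Each tumor is a separate dog.

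The members and lists were chosen with earlier results of these data known. Named genes are the 8 members, SQLE, SREBF2 and GGPS1, the 2 highest and 2 lowest slopes of each list, the 5 genes most correlated with each member, and the 10 highest and 5 lowest with their mean; some genes this rule names are not reported here. Other genes named, such as those in the fit with the osteoclast score, were chosen after their values were seen.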

Additional observations from a re-analysis of the deposited data

How the results depend on the processing

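No paired analysis was possible because the replicate numbers were given in accession order and pair no dogs of the trials. With 93 dogs in each trial, dogs were not left out in turn; COTC022 replicate 64 alone was, and the members called then numbered 6 along GS-1, 4 for adipocyte, 4 for osteoblast and 3 for osteoclast markers, with the other scores and the trial unchanged in number. Genes called between the trials numbered 2 by limma, 129 by edgeR and 71 by DESeq2, 0 in the double-underline libraries and 8 in the others; the trial difference of MVD was -0.12 in the double-underline libraries. Genes called along GS-1 numbered 3284 in the double-underline libraries, 3434 within COTC021 and 3537 in the joint fit. Members called along GS-1 were 3 within COTC021, 1 within COTC022, 1 in the double-underline libraries, 3 in the others, 3 with proliferation as covariate and 0 in the joint fit. The GS-1 slope of INSIG1 was 0.019 within COTC022, 0.039 in the other libraries and 0.0070 without COTC022 replicate 64. That of MVD was 0.0030 with proliferation as covariate and 0.071 in the joint fit, where FDPS had 0.049 and IDI1 0.016. On proliferation INSIG1 had 0.059 within COTC022, 0.079 in the double-underline libraries and 0.059 in the joint fit, and on the osteoblast score -0.042 in the joint fit. On the osteoclast score FDPS had 0.034 within COTC021, 0.017 in the other libraries and 0.041 with the macrophage score as covariate. For the marker scores, the share of all genes called without COTC022 replicate 64 is not given, so those counts of members have no background beside them.

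Members called in COTC021, COTC022, the double-underline libraries and the others numbered 1, 2, 1 and 2 for osteoblast markers, with 0 in the joint fit. For osteoclast markers 1 was called in COTC021, in COTC022, in the double-underline libraries and with the macrophage score as covariate. For macrophage markers it was 4 in COTC021, 1 in COTC022 and 1 in the double-underline libraries, and for T cell markers 2, 1, 1 and 1 in the same 4 sets. For adipocyte markers it was 0 in COTC021, 0 in the double-underline libraries and 1 in the others, and for skeletal muscle and for cartilage markers 0 in each of the 4 sets. For endothelial markers it was 3 in COTC021, 1 in the double-underline libraries and 4 in the joint fit, and for proliferation 3 in the double-underline libraries and 4 in the joint fit. With INSIG1 4 members were called with proliferation and GS-1 as covariates, 6 with the osteoclast score, 0 with it in the double-underline libraries and 7 with it in the others. With the osteoclast score fitted, the slope of INSIG1 on MVD was 0.14 and that of MVD on INSIG1 0.23, 0.18 within COTC021, 0.30 within COTC022 and 0.37 in the other libraries. The r of MVD and INSIG1 was 0.039 on library-total CPM and 0.018 in the other libraries. Of the 28 pairs 16 had a permutation p under 0.05 in the double-underline libraries, and the share of all gene pairs at that cutoff was not computed. Sets of 50 or 93 libraries hold fewer dogs than the full set, and beyond that the cause was not tested. Apart from the INSIG1 fits with the osteoclast score, the share of all genes called in these fits is not given. The counts of members in them are therefore not set against a background. The joint fit, the fits with osteoclast or macrophage covariates and those within trials or name groups for marker scores were added after the data had been seen.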

Other observations

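Genes of cholesterol efflux were followed as a list, which held the sterol-sensing receptors NR1H2 and NR1H3 (LXR), the efflux transporters ABCA1 and ABCG1, MYLIP, a ubiquitin ligase, and APOE, the lipoprotein component. Of these 6 genes, 5 fell with DHCR7 (22.3% of all genes fell), 4 with HMGCS1 (11.7%), 4 with FDPS (20.3%), 4 with IDI1 (19.7%) and 4 with MVD (23.9%), by limma-voom with adjustment over all genes. With FDFT1 3 fell (9.86%) and with LSS 2 (5.13%). With INSIG1 1 rose (11.3%) and 0 fell (10.4%). On the mean z-score of the members APOE had a slope of -0.50 (SE 0.11), ABCG1 one of -0.43 (SE 0.067), NR1H3 one of -0.15 and NR1H2 one of -0.03 (SE 0.030), on the log2 scale per SD and as descriptions. Along the GS-1 score 4 of these 6 genes rose and 0 fell, while 5 of the 10 sterol steps outside the members fell and 0 rose, where 22.3% of all genes rose and 26.2% fell. Macrophages also express several of these genes. On the macrophage score 4 of the 6 rose and 0 fell, where 22.1% of all genes rose. Per SD of that score APOE rose by 0.95 on the log2 scale (limma adjusted p = 2.30e-16) and ABCG1 by 0.62 (adjusted p = 2.16e-20). NR1H3 rose by 0.61 (adjusted p = 1.35e-18) and ABCA1 by 0.55 (adjusted p = 1.49e-23). How far the share of macrophages in the tissue moves the slopes on the members was not tested.

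Of the 20 genes with the smallest p in the fit on INSIG1 with the osteoclast score as covariate, 5 were members: HMGCS1, LSS, IDI1, DHCR7 and FDFT1. MSMO1, SC5D and SQLE of sterol synthesis, and SREBF2, FADS1 and ACLY of the other lists, were also among them. So were HK2, ENO1 and SLC16A3, of glycolysis and lactate export, PLA2G15, and DEPTOR, which alone of those named fell. The first was SLC4A2, with a slope of 0.39 (adjusted p = 2.63e-10).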
